A study of Homo sapiens with 16 samples.

Results

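The autophagy genes described here are 40 of the 12676 genes counted in the RNA-seq of H1299, an established line of human non-small-cell lung cancer (NSCLC) cells. They were chosen by name: the ATG, ULK1/2, WIPI, LC3 (MAP1LC3) and GABARAP genes, the beclin 1 and VPS34 complex genes BECN1, PIK3C3, PIK3R4, UVRAG and AMBRA1, RB1CC1, VMP1, and the cargo receptors and cofactors SQSTM1, NBR1, OPTN, TAX1BP1, CALCOCO2, BNIP3, BNIP3L and TP53INP2. The name rule itself uses no measured value, although it was written with earlier results of these data known. Of the 45 names looked for in these families, ATG9B, MAP1LC3B2, MAP1LC3C and GABARAPL3 were not listed and were not analysed here, and ATG101 was listed under its older symbol C12orf44, which the name rule did not match.

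YEATS2 is a histone reader subunit of the ATAC acetyltransferase complex, and the libraries compared H1299 cells infected with a non-targeting pLKO control virus (shNT, 2 libraries) with cells infected with a pLKO virus against YEATS2 (shYEATS2, 2 libraries). All cells received 8 µg/ml polybrene during infection and 2 µg/ml puromycin from 48 h on, with 4 to 7 days of selection per the labels (the study's methods give a shorter time), so that controls also carried a lentiviral hairpin and the selection drug. The labels do not name the hairpin, and by the study's text the knockdown libraries carry a single one. Within these libraries, effects of the hairpin itself cannot be told apart from loss of YEATS2. The study also reports RNA-seq with an independent hairpin, and a rescue of growth and ribosomal protein gene expression by hairpin-resistant YEATS2. Neither is in the libraries used here. The study calls the libraries of a group independent biological replicates, while the labels only number them. The p-values rest on the spread between these libraries, estimated with information shared over all genes.

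Macroautophagy encloses part of the cytoplasm in a double membrane, the autophagosome, which fuses with lysosomes. A kinase complex around ULK1 starts the process, the class III PI3 kinase complex marks the membrane with phosphatidylinositol 3-phosphate, WIPI and ATG2 proteins and the ATG9 scramblase bring in lipid, and a pair of ubiquitin-like conjugation systems attach ATG8 family proteins (LC3 and GABARAP) to phosphatidylethanolamine. Cargo receptors such as p62, encoded by SQSTM1, bind both the cargo and the ATG8 proteins. Transcripts were measured here, and neither autophagic flux nor protein was, so that no value below is a rate of autophagy.

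The 4 libraries held between 34718921 and 39417787 reads assigned to genes. YEATS2 itself (ENSG00000163872) had 4482 and 4104 scaled reads in shNT replicates 1 and 2, the order kept for all values below, and 665 and 673 in shYEATS2. It fell by 84.4% (log2 fold change −2.68, SE 0.10, FDR 0.000583, where FDR is the p of edgeR's quasi-likelihood test after Benjamini-Hochberg adjustment over all genes). Scaled reads are counts brought to a common library size by TMM (trimmed mean of M-values) factors of 0.952 to 1.05. Replicates of a group differed by more than sampling noise (chi-square per degree of freedom 17.9 for the shNT pair and 38.0 for the shYEATS2 pair). Of the markers looked at, KRT8, KRT18, VIM and CDH2 were listed and the epithelial genes EPCAM and CDH1, all 4 blood genes and all 3 endothelial genes were not. In bulk RNA, a change in the share of cells in a given state and a change of RNA per cell cannot be told apart.

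After YEATS2 KD, 8 of the 40 autophagy genes were upregulated at an FDR under 0.01, which is 20.0% of them beside 12.9% of all genes tested, and 1 was downregulated, which is 2.5% beside 12.5% of all genes. The upregulated genes were SQSTM1, WIPI1, ULK1, ATG14, ATG2A, AMBRA1, MAP1LC3B and OPTN, and the downregulated gene was ATG4C. The 9 genes that passed stand beside 25.3% of all genes called in either direction. The other 31 genes did not pass. Their log2 fold changes ran from −0.46 (BNIP3) to 0.55 (TP53INP2), and 16 of them lay within 0.2 of 0. Both shYEATS2 libraries lay above both shNT libraries in 18 of the 40 genes, beside 39.7% of all genes, and below them in 15, beside 39.8% of all genes. Their median change was 0.10 on the log2 scale, beside −0.0019 for all genes tested. At an unadjusted p under 0.05 in edgeR's test, 14 were higher and 7 lower, beside 28.7% and 27.8% of all genes. Among the genes that passed, 7 changed by at least 1.5-fold in either direction.

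These counts moved with single libraries. Without shNT replicate 1, shNT replicate 2 or shYEATS2 replicate 2, 4 of the 40 genes were called higher in each case, and without shYEATS2 replicate 1, 11 were. Over all genes, the share called higher moved in the same order of fits from 12.9% to 6.11%, 6.96%, 7.90% and 15.7%. The median over the 40 genes was 0.02 without shNT replicate 1 and 0.02 without shYEATS2 replicate 2, and 0.14 and 0.17 without each of the other two. SQSTM1, ULK1 and WIPI1 were called in all 4 of these fits, ATG14, ATG2A and AMBRA1 in 2, and MAP1LC3B, OPTN and ATG4C in 1. All 8 upregulated genes were higher in shYEATS2 replicate 2 than in replicate 1, as were 85.3% of all upregulated genes and 49.4% of all genes tested.

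**Figure D1:**
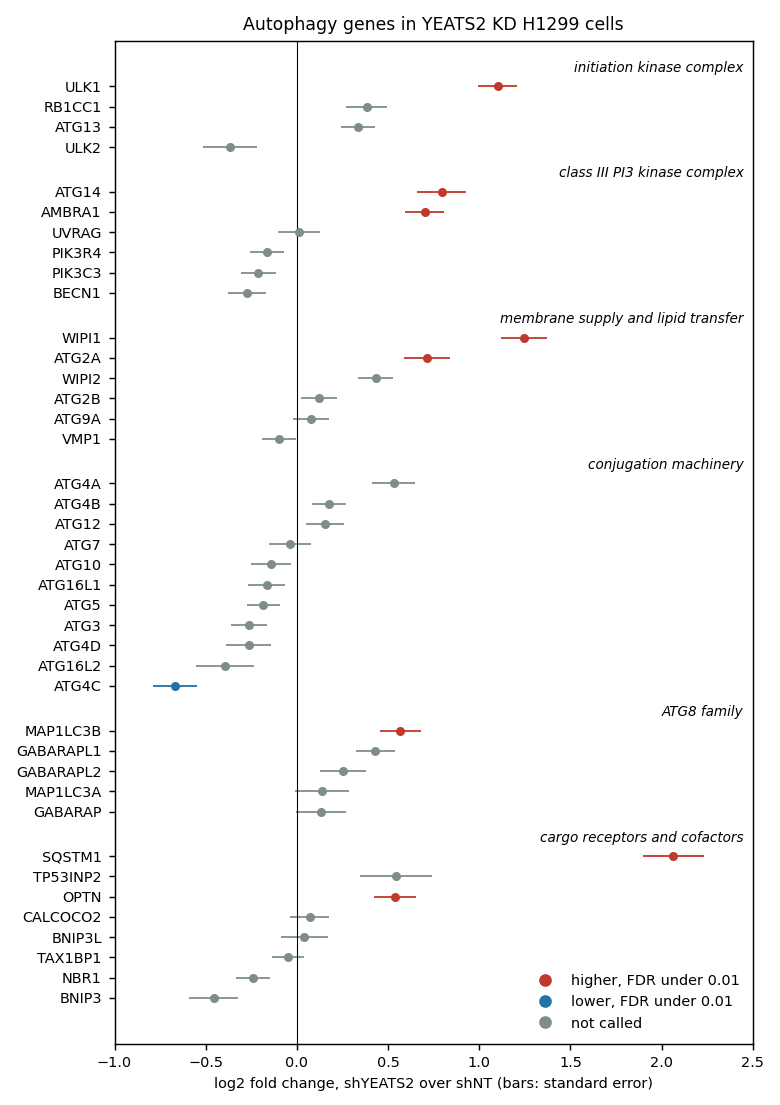
Log2 fold change of shYEATS2 over shNT (x axis) for the 40 autophagy genes, grouped by role, with bars for the standard error of the fit. The 8 genes called higher reach from OPTN at 0.54 to SQSTM1 at 2.06, and ATG4C at −0.67 is the gene called lower.

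SQSTM1, which encodes the cargo receptor p62 that binds ubiquitin and LC3, rose most. It lies on the forward strand of chromosome 5 (179233398 to 179265078, GRCh37). Its scaled reads were 13110 and 10944 in shNT cells and 43187 and 57434 after YEATS2 KD. The groups were far apart, with the lower knockdown library more than 3 times the higher control. The log2 fold change was 2.06 (SE 0.17, 4.18-fold, FDR 0.000876 by edgeR's quasi-likelihood test), rank 106 of the 12676 genes. Per exon length, SQSTM1 was the most abundant of the 40 genes in every library, at an RPKM (reads per kb of exon, relative to the TMM library size) of 47.8 and 39.9 in shNT and 157 and 209 in shYEATS2. It took 0.0343% and 0.0291% of all reads in the control libraries and 0.123% and 0.165% in the knockdown libraries. The 40 genes together took 0.295% and 0.300% in shNT and 0.436% and 0.507% in shYEATS2, and without SQSTM1 0.261%, 0.271%, 0.313% and 0.342% in that order.

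Part of the SQSTM1 exons, 22.4% of their length, overlaps exons of other genes, and the library kit does not mark strand, so reads in those stretches cannot be assigned to one gene. MGAT4B, a glycosyltransferase gene that starts beside SQSTM1 on the other strand, was itself at 5470 and 3973 scaled reads in shNT and 15992 and 16733 in shYEATS2 (log2 fold change 1.79, SE 0.16, FDR 0.000978 by edgeR's quasi-likelihood test). The rise of SQSTM1 was 38284 scaled reads between group means, and the mean of MGAT4B in shYEATS2 was 16362. The reads counted for MGAT4B do not give the number of shared reads. The part of shared reads in the SQSTM1 value was not tested.

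**Figure D2:**
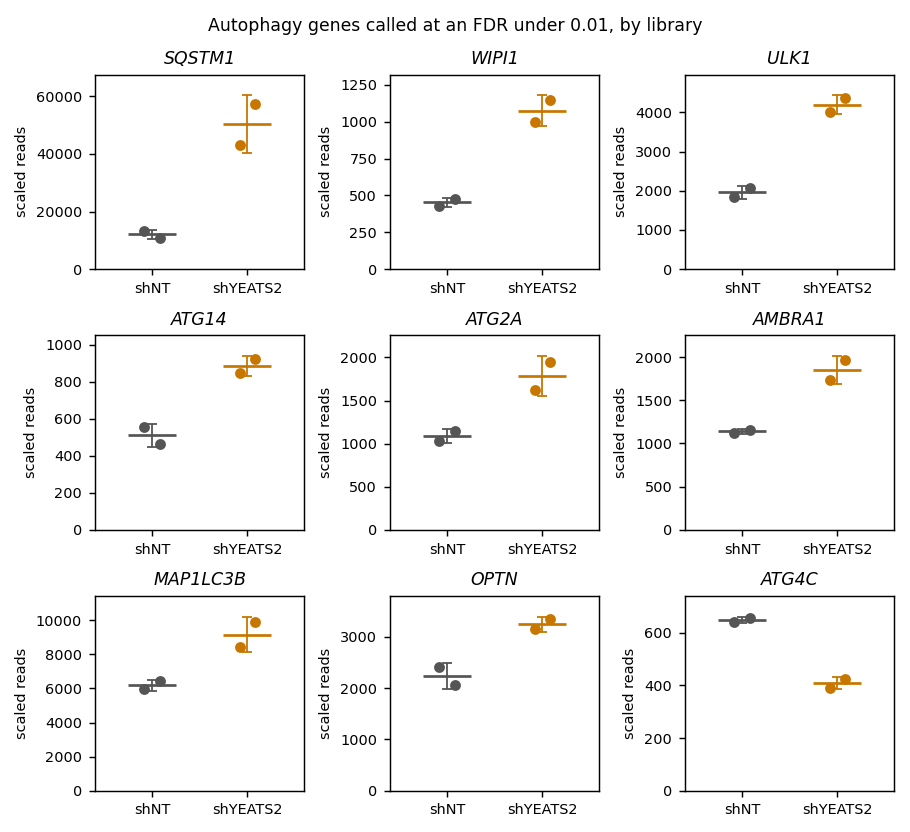
Scaled reads of the 9 autophagy genes called at an FDR under 0.01, 1 panel per gene with its own y axis from 0, points for single libraries and bars for the mean and SD (n = 2 per group). In all 9 panels the points of the groups do not overlap. Of all genes tested, both shYEATS2 libraries lay above both shNT libraries in 39.7% and below them in 39.8%. The 9 genes were picked by the test on these same libraries, so their separation adds no support. The spread between the shYEATS2 points is widest in reads for SQSTM1, at 43187 and 57434.

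In the initiation complex, ULK1 was upregulated and its paralog ULK2 was not. ULK1, the kinase that receives signals from mTORC1 and AMPK, lies on chromosome 12 (132379167 to 132407695, forward strand) and had 1840 and 2071 scaled reads in shNT and 4022 and 4365 in shYEATS2. Its change was 2.14-fold (log2 1.10, SE 0.11, FDR 0.00114 by edgeR's quasi-likelihood test). ULK2 was at 539 and 558 in shNT and at 476 and 376 in shYEATS2, a log2 fold change of −0.37 (FDR 0.0817 by the same edgeR test). The groups of ULK2 did not overlap, but the difference did not pass. The log2 ratio of ULK1 to ULK2 reads was 1.77 and 1.89 in shNT cells and 3.08 and 3.54 in YEATS2 KD cells. All paralog ratios given here come from 2 against 2 libraries, where the smallest exact two-sided permutation p is 0.33.

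The scaffold genes of the same complex lay above the controls without passing. RB1CC1 (FIP200) had a log2 fold change of 0.38 (edgeR FDR 0.0293) and ATG13 of 0.33 (edgeR FDR 0.0243). ATG101, listed as C12orf44 and outside the 40, had 940 mean scaled reads in shNT and 1211 in shYEATS2, a log2 fold change of 0.37 (edgeR FDR 0.0458). Of the 4 initiation genes counted among the 40, 1 was called higher, beside 12.9% of all genes. The median log2 fold change of the 4 was 0.36.

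Of the 6 genes of the class III PI3 kinase complex and its regulators, 2 were called higher, beside 12.9% of all genes, and the median log2 fold change was −0.08. ATG14, the subunit that directs the kinase to autophagosome formation sites, was at 554 and 465 scaled reads in shNT and 845 and 921 in shYEATS2. It rose 1.73-fold (log2 0.79, SE 0.13, FDR 0.00420 by edgeR's quasi-likelihood test) and lies on the reverse strand of chromosome 14 (55833109 to 55878548). Exons of FBXO34 on the other strand cover 20.8% of the ATG14 exon length, and FBXO34 had a log2 fold change of 0.36 (edgeR FDR 0.0643). AMBRA1, a regulator that links ULK1 and beclin 1, was at 1121 and 1156 in shNT and at 1736 and 1963 in shYEATS2. Its change was 1.62-fold (log2 0.70, SE 0.11, FDR 0.00306 by edgeR's quasi-likelihood test), from chromosome 11 (46417964 to 46615675, reverse strand). The catalytic subunit gene PIK3C3 (VPS34) had a log2 fold change of −0.21, PIK3R4 (VPS15) of −0.16 and BECN1 of −0.27, with edgeR FDR values of 0.105, 0.182 and 0.0677. UVRAG, which takes the place of ATG14 in the endosomal form of the complex, was at 0.01.

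Among the genes of membrane supply and lipid transfer, 1 paralog of each of the WIPI and ATG2 pairs passed. These 2 of 6 genes stand beside 12.9% of all genes called higher. WIPI1, which reads phosphatidylinositol 3-phosphate on the growing membrane, was at 430 and 475 scaled reads in shNT and 998 and 1148 in shYEATS2 (log2 fold change 1.24, SE 0.13, FDR 0.00119 by edgeR's quasi-likelihood test). It lies on the reverse strand of chromosome 17 (66417089 to 66453654), where the sulfatase gene ARSG on the other strand is among the genes covering 28.1% of its exon length. ARSG was at 293 and 293 in shNT and 544 and 443 in shYEATS2 (log2 fold change 0.75, edgeR FDR 0.00775), and the part of shared reads was not tested. The rise of WIPI1 between group means was 620 scaled reads, and the mean of ARSG in shYEATS2 was 494. WIPI2, the family member that recruits ATG16L1, was at 3921 and 3914 in shNT and 5061 and 5501 in shYEATS2. The groups were apart and its log2 fold change of 0.43 fell just outside the threshold (edgeR FDR 0.0104). WIPI2 passed in 8 of 11 alternative fits that kept all libraries. The log2 ratio of WIPI1 to WIPI2 was −3.19 and −3.04 in shNT and −2.34 and −2.26 in shYEATS2, so that WIPI2 held more reads in all 4 libraries.

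ATG2A, which forms a bridge for lipids from the endoplasmic reticulum, was at 1028 and 1146 scaled reads in shNT and 1618 and 1946 in shYEATS2. It lies on chromosome 11 (64662018 to 64684681, reverse strand) and rose 1.64-fold (log2 0.71, SE 0.13, FDR 0.00507 by edgeR's quasi-likelihood test). With a correction for the trend of fold change on exon length, GC content and mean count, the FDR of ATG2A was 0.0173 in edgeR, outside the threshold. ATG2B had a log2 fold change of 0.12. The log2 ratio of ATG2A to ATG2B was −1.50 and −1.24 in shNT and −0.86 and −0.70 in shYEATS2. ATG9A, the lipid scramblase on ATG9 vesicles, had a log2 fold change of 0.08 and VMP1, an endoplasmic reticulum scramblase, of −0.10. Both were far from passing, with edgeR FDR values of 0.550 and 0.400.

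Of the 11 conjugation genes, ATG4C passed downward and none passed upward in edgeR's quasi-likelihood test, with 1 higher (ATG4A) and 3 lower at an unadjusted p under 0.05. Over all genes, 12.9% were called higher and 12.5% lower, and 28.7% and 27.8% had such an unadjusted p. ATG4A was called higher in 7 of 11 alternative fits that kept all libraries, among them DESeq2 and exactTest, and ATG4C lower in 8. ATG4 proteases trim ATG8 proteins before conjugation and release them afterwards. ATG4C was at 641 and 656 scaled reads in shNT and at 392.1 and 424.4 in shYEATS2. It fell to 0.629 of the control (log2 fold change −0.67, SE 0.12, FDR 0.00537 by edgeR's quasi-likelihood test) and lies on chromosome 1 (63249803 to 63331187, forward strand). With total counts, ATG4C had a log2 fold change of −0.55 and an edgeR FDR of 0.0106. With the trend correction, its log2 fold change was −0.35 and its edgeR FDR 0.0477. ATG4A went the other way, with 443 and 422 in shNT and 622 and 628 in shYEATS2, and missed the threshold (log2 fold change 0.53, edgeR FDR 0.0108). ATG4B was at 0.18 and ATG4D at −0.26 on the log2 scale, and neither passed. The log2 ratio of ATG4C to ATG4D was −0.35 and −0.11 in shNT and −0.67 and −0.61 in shYEATS2, and that of ATG4A to ATG4B was −2.72 and −2.77 in shNT and −2.35 and −2.42 in shYEATS2.

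The enzymes and scaffolds of both conjugation systems were mostly a little below the controls without passing. ATG7, the common E1-like enzyme, had a log2 fold change of −0.04, the E2-like enzymes ATG3 and ATG10 of −0.26 and −0.14, and the E3-like components ATG5, ATG16L1 and ATG12 of −0.18, −0.16 and 0.16. ATG16L2, the paralog of ATG16L1 with the lowest level of all 40 genes per exon length, was at −0.39. The edgeR FDR values of these 7 genes lay between 0.0629 (ATG3) and 0.811 (ATG7). Fold changes of 8 of the 11 conjugation genes were negative with TMM scaling, beside 6350 of the 12676 genes tested. With total counts, 7 of the 11 were negative. The median of the 11 with TMM was −0.16.

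All 5 listed ATG8 genes had positive log2 fold changes, beside 6326 of the 12676 genes tested. Of the 5, 1 passed, beside 12.9% of all genes called higher. The sign of the 5 ATG8 genes held in every scaling and tool tried, with the exception of MAP1LC3A without shNT replicate 1. MAP1LC3B (LC3B), the member most used as a marker of autophagosomes, lies on chromosome 16 (87417559 to 87438385, forward strand). It was at 5946 and 6405 scaled reads in shNT and 8423 and 9877 in shYEATS2 (log2 fold change 0.57, SE 0.11, FDR 0.00740 by edgeR's quasi-likelihood test). GABARAPL1 was at 1701 and 1839 in shNT and 2230 and 2540 in shYEATS2, without overlap, at 0.43 on the log2 scale (edgeR FDR 0.0166). GABARAPL2, MAP1LC3A and GABARAP were at 0.25, 0.14 and 0.13 on that scale, with edgeR FDR values of 0.132, 0.469 and 0.444.

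Per exon length, the family summed to an RPKM of 85.9 and 92.7 in shNT and 108 and 125 in shYEATS2. MAP1LC3B made up 37.7% and 37.7% of this sum in the controls and 42.6% and 43.1% in the knockdown. The share of GABARAP was 10.11% and 10.99% in shNT and 8.90% and 8.89% in shYEATS2. GABARAPL2, the next most abundant, held 29.3% and 27.3% in shNT and 24.9% and 26.7% in shYEATS2. Shares of GABARAPL1 were between 13.4% and 14.0% in all 4 libraries. These shares are descriptions, since 2 libraries a group cannot reach an exact two-sided p under 0.33. Log2 ratios of reads within the family moved in the same sense, with GABARAPL1 to GABARAP at 1.46 and 1.35 in shNT and 1.71 and 1.69 in shYEATS2, and GABARAPL1 to GABARAPL2 at −0.70 and −0.59 in shNT and −0.40 and −0.53 in shYEATS2.

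**Figure D3:**
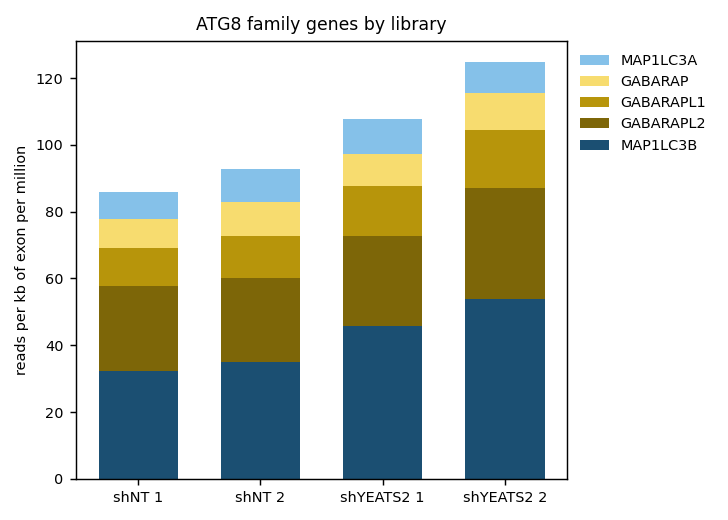
RPKM (reads per kb of exon relative to the TMM library size; y axis, from 0) of the 5 listed ATG8 family genes, stacked for each of the 4 libraries (x axis). The stacks reach 85.9 and 92.7 in shNT and 108 and 125 in shYEATS2, with MAP1LC3B the largest part of every stack.

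Among the 8 cargo receptors and cofactors, OPTN passed besides SQSTM1. These 2 of 8 genes stand beside 12.9% of all genes called higher. OPTN (optineurin), a receptor for damaged mitochondria and bacteria, was at 2416 and 2054 scaled reads in shNT and 3145 and 3344 in shYEATS2. It lies on the forward strand of chromosome 10 (13141449 to 13180308) and rose 1.45-fold (log2 0.54, SE 0.11, FDR 0.00918 by edgeR's quasi-likelihood test). The other ubiquitin-binding receptors TAX1BP1, CALCOCO2 (NDP52) and NBR1 had log2 fold changes of −0.05, 0.07 and −0.24 and did not pass. TP53INP2, a nuclear LC3-binding cofactor, had a log2 fold change of 0.55, with 2253 and 3081 in shNT and 3269 and 4514 in shYEATS2 (edgeR FDR 0.0577). The median log2 fold change of the 8 genes was 0.06.

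BNIP3 and BNIP3L (NIX), hypoxia-inducible receptors for mitochondria in the outer mitochondrial membrane, did not pass. BNIP3 was at 1097 and 1251 scaled reads in shNT and at 775 and 935 in shYEATS2, without overlap (log2 fold change −0.46, edgeR FDR 0.0293). BNIP3L was at 0.04 on the log2 scale. The log2 ratio of BNIP3 to BNIP3L was −1.31 and −1.33 in the controls and −1.82 and −1.82 in the knockdown, so that each pair of libraries was close together and the groups were apart.

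**Figure D4:**
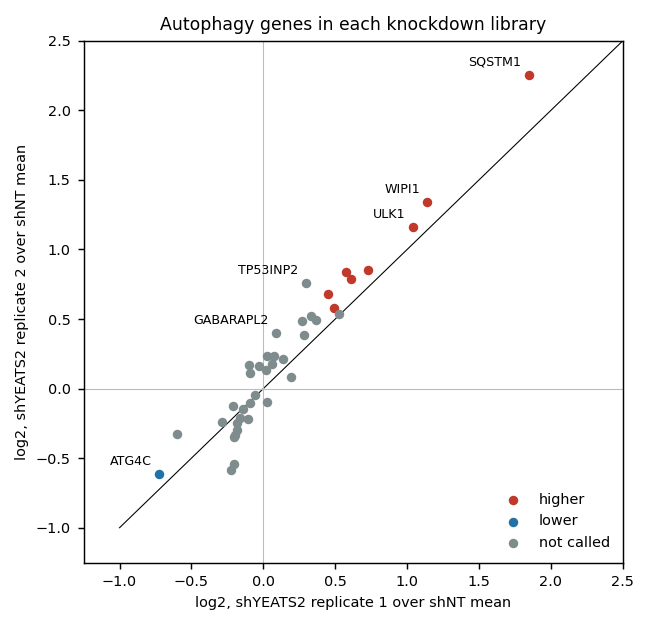
Log2 ratio to the shNT mean of each autophagy gene in shYEATS2 replicate 1 (x axis) and replicate 2 (y axis), 1 point per gene. All 8 genes called higher lie above 0 in both libraries, as do all 1630 genes called higher among all genes tested. The 8 genes are also higher in replicate 2, as are 85.3% of the 1630. ATG4C lies below 0 in both.

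**Figure D5:**
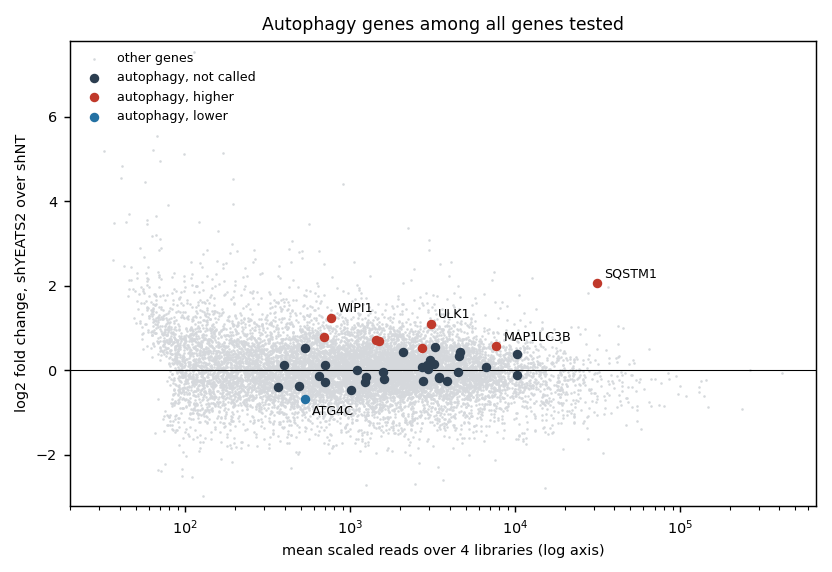
Log2 fold change of shYEATS2 over shNT (y axis) against mean scaled reads over the 4 libraries (x axis, log scale) for all 12676 genes (grey) and the 40 autophagy genes (coloured). The autophagy genes have means from 364 to 31170 scaled reads, and most sit close to 0 beside SQSTM1 at 2.06.

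GC content was taken from the longest annotated transcript of each gene. Its median was 53.5% for the 8 genes called higher and 46.1% for the 31 autophagy genes that did not pass. It was 49.0% for all upregulated genes and 47.4% for all genes tested. Median exon lengths were 6336 bases for the 8 genes and 6413 for the 31. With the correction for the trend with GC content, exon length and mean count, 7 of the 8 kept an edgeR FDR under 0.01 and ATG2A did not.

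The E-box hexamer CACGTG is the core of the element to which TFEB and TFE3, transcription factors of autophagy and lysosome genes, bind. It was searched for, on both strands, in 300-base windows around gene starts (250 bases before to 50 after; RefSeq, GRCh38.p14). Windows were found for 35 of the 40 genes, 44 windows in all, and 3 of the 44 (6.82%) held it, beside 7.26% of all 35116 windows. The matches were in ATG14, which rose, and in ATG3 and BNIP3, which did not pass (log2 fold changes −0.26 and −0.46). They are printed 5′ to 3′ on the reverse strand with the hexamer in capitals, because ATG14 is the only gene of the 8 upregulated whose window holds it.

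ATG14 (chr14:55411834-55411863): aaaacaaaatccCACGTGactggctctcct
ATG3 (chr3:112561963-112561992): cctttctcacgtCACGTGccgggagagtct
BNIP3 (chr10:131982040-131982069): gcgcacgcgccgCACGTGccacacgcaccc

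The hexamer begins 21 bases before the annotated start in ATG14, 18 before in ATG3 and 134 before in BNIP3. The longer form TCACGTG, which contains the hexamer, was in the ATG14 and ATG3 windows, 4.55% of the 44 beside 3.71% of all windows. The core of the antioxidant response element, TGACNNNGC, was in the windows of MAP1LC3B and CALCOCO2, 4.55% beside 13.3% of all, and the AP-1 word TGANTCA was in none of the 44, beside 7.71% of all. The SQSTM1, ULK1 and WIPI1 windows held none of these words, which says only that the letters are not in those 300 bases.

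Other genes of the pathway were read from a list of 43 names not among the 40, of which 41 were tested. Upregulated were 14 of the 41 and downregulated 5, beside 12.9% and 12.5% of all genes, and the median log2 fold change was 0.27. Both counts moved with single libraries left out, and so did the calls over all genes. PLEKHM1, an adaptor of autophagosome and lysosome fusion, was at 1051 and 1027 scaled reads in shNT and 2420 and 2825 in shYEATS2 (log2 fold change 1.34, FDR 0.000888 by edgeR's quasi-likelihood test). The next largest rises were those of TECPR2 (1.03), TOLLIP (0.98), a ubiquitin-binding receptor, FYCO1 (0.85), a kinesin adaptor of autophagosomes, and CALCOCO1 (0.84), a receptor for the endoplasmic reticulum. STX17, the SNARE of the completed autophagosome, fell from 654 and 743 to 374 and 314 scaled reads (log2 fold change −1.02, edgeR FDR 0.00254). C9orf72 (−0.82), WDR45B (−0.76), a WIPI family member, PHB2 (−0.56) and TEX264 (−0.51) also fell.

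Genes upstream of the pathway were read from a list of 37 names, of which 34 were tested, 8 were called higher and 2 lower, beside 12.9% and 12.5% of all genes, with a median log2 fold change of 0.13. Without shNT replicate 1, 3 were called higher and 0 lower (6.11% and 6.71% of all genes), without shNT replicate 2, 4 and 0 (6.96% and 7.25%), and without shYEATS2 replicate 2, 3 and 1 (7.90% and 8.41%). SESN2, a stress-induced inhibitor of mTORC1 signalling, was at 1005 and 1852 scaled reads in shNT and 4225 and 5638 in shYEATS2 (log2 fold change 1.79, SE 0.28, FDR 0.00363 by edgeR's quasi-likelihood test). Its spread between control libraries was wide, but both knockdown libraries lay above both. SESN1 rose by 1.00 on the log2 scale, RRAGC by 0.98, LAMTOR3 by 0.56 and TFE3 by 0.54. RRAGA and LAMTOR2, also parts of the lysosomal platform of mTORC1, fell by 0.65 and 0.51. Of 5 tested subunit and activator genes of mTORC1, 0 passed in edgeR's quasi-likelihood test. In that test 3 were higher and 1 lower at an unadjusted p under 0.05, beside 28.7% and 27.8% of all genes. DESeq2 and exactTest each called 3 higher and 1 lower. Of all genes, DESeq2 called 17% higher and 17.3% lower, and exactTest 20.5% and 19.7%. MTOR itself had a log2 fold change of 0.42 (edgeR FDR 0.0115). TFEB and MITF were not listed.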

How the data were processed

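RNA-seq libraries of H1299 cells (2 shNT and 2 shYEATS2) were used, and the ChIP-seq samples of the series were not used here. Per the methods, the authors used the RNA-Seq unified mapper against hg19 (the submitters' processing notes list TopHat2 2.0.10 and Bowtie2 2.1.0), and deposited unnormalized HTSeq counts of reads per gene (0.6.1p1 in the notes). The gene annotation is not given in the sources used here. The deposited log2 fold changes, p-values and FDR values of the authors' own comparison were not used. Each listed gene has above 100 reads in 1 library or more. Groups came from the labels.

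A minimum of 10 reads in 2 or more libraries kept all 12676 genes, which were tested with the quasi-likelihood test of edgeR 4.0.16 in R 4.3.3, TMM scaling, Benjamini-Hochberg adjustment over all genes and an FDR under 0.01. The methods of the study name exactTest, which was an alternative. The script was tested on simulated counts. Scaled reads are counts divided by TMM effective library size, times the mean of that size. Exon lengths and positions are unions of exons in a GENCODE annotation of GRCh37, to which 12465 of 12676 identifiers (98.3%) matched. The kit (TruSeq mRNA v2) does not mark strand. The replicate SD rests on 2 libraries a group. The SE comes from edgeR's fit, in which the spread of each gene is estimated with information from all genes.

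Every one of the 40 genes is named, and those past the threshold are given with all their values. Of the other lists, up to 5 rises and 5 falls past the threshold are named. Paralog pairs were set by name. The value of 1 marker gene is not reported here. The name rule for the members, the lists and the tests were chosen with earlier results of these data known. Alternatives were DESeq2 (1.42.0), exactTest, limma-trend (limma 3.58.1, pseudocount of 1 CPM), other scalings and filters, a replicate block, a spline correction for exon length, GC content and mean count, other thresholds, and each library left out.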

Additional observations from a re-analysis of the deposited data

How the results depend on the processing

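The count of autophagy genes called higher, 8, was 11 with DESeq2 and with exactTest, 12 with total counts and 10 with upper quartile scaling. It was 13 at an FDR under 0.05 and 6 with at least a 1.5-fold change. The share of all genes at these cutoffs is not given here. Counts under them, here and below, therefore cannot be read as a trait of the listed genes. Of all genes, 12.9% were called higher in the main fit. That share was 17% with DESeq2, 20.5% with exactTest, 18.6% with total counts and 14.4% with upper quartile scaling. The count called lower, 1, was 2 with exactTest, 0 with total counts, 0 with the trend correction and 2 at an FDR under 0.05. Of all genes, 12.5% were called lower in the main fit, 19.7% with exactTest, 9.2% with total counts and 11.8% with the trend correction. Both counts also moved with a library left out. The median log2 fold change of 0.10 was 0.22 with total counts, a scaling that moved the median of all genes to 0.12, and 0.0153 to 0.1656 with a library left out. Total counts also changed the calls over all genes from 1630 higher and 1581 lower to 2363 and 1166. Other autophagy genes called higher (14) were 7 to 17 with a library left out, and those called lower (5) were 3 with total counts, 3 with at least a 1.5-fold change and 1 to 5 with a library left out. Upstream genes called higher (8) were 13 with exactTest, 5 with the trend correction, 14 at an FDR under 0.05, 3 with at least a 1.5-fold change and 3 to 9 with a library left out. Those called lower (2) were 5 with DESeq2, 5 with exactTest, 1 with total counts, upper quartile scaling, a mean count of at least 100, the trend correction or at least a 1.5-fold change, 5 at an FDR under 0.05 and 0 to 2 with a library left out. Taken from reads without division by exon length, the share of the ATG8 family in shYEATS2 minus that in shNT was −1.09 percentage points for GABARAP (−1.66 per exon length), −0.11 for GABARAPL1 (0.47) and 4.75 for MAP1LC3B (5.17). The causes were not tested.

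The replicate numbers in the labels are shared by the groups, but nothing says that they mark a common culture or day. The deviations of the replicate 1 libraries from their group means correlated at 0.402 across genes. With a replicate block, 13 autophagy genes were called higher and 2 lower (14 and 2 with the trend correction as well), and upstream genes were 13 higher and 5 lower, beside 21.6% and 21.4% of all genes. TP53INP2 was among those newly called, with an edgeR FDR of 0.000913 under the block.

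No called autophagy gene changed direction under any alternative. Over single autophagy genes, 405 of the comparisons with other settings kept their side of the threshold, 31 newly passed and 4 no longer passed. With a library left out, where the lone library is assumed to vary like the other group, 142 kept their side, 3 newly passed and 15 no longer passed. YEATS2 passed in every fit. With 2 libraries a group, differences much under 1.5-fold often could not be called.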

Other observations

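Exons of 8 genes on the other strand overlap exons of the upregulated autophagy genes. Of these, 5 were listed and 4 were called higher, beside 12.9% of all genes, and 3 (CCDC3 and 2 without a symbol) were not analysed here. FBXO31, which shares 1.19% of the MAP1LC3B exon length, had a log2 fold change of 0.75 (edgeR FDR 0.00308). MGAT4B (chromosome 5, 179224597 to 179233952, reverse strand, GRCh37) shares 555 bases with the SQSTM1 gene at the starts of both, and C5orf45, annotated as MRNIP (179262133 to 179289173, reverse strand), shares 2946 bases at the other end. Their log2 fold changes were 1.79 and 0.56 (edgeR FDR 0.000978 and 0.00597). ARSG (chromosome 17, 66255323 to 66418872, forward strand) shares 1784 bases with WIPI1 at the ends of both, with a log2 fold change of 0.75 (edgeR FDR 0.00775). FBXO34 (chromosome 14, 55738062 to 55836771, forward strand) shares 3663 bases with ATG14 and had a log2 fold change of 0.36 (edgeR FDR 0.0643). Among the 40 autophagy genes, 3 of 8 with over 10% of their exon length shared were called higher, and 5 of 32 with less. The median log2 fold changes of these sets were close, at 0.105 and 0.095. Of all genes, 12.9% were called higher, and exon overlap was not taken for them. These neighbours were picked after their values had been seen, and the part of shared reads was not tested.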
